A study of Homo sapiens with 18 samples.

Results

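GPC3 mRNA fell after disulfiram in EpCAM+ cells of both hepatocellular carcinoma lines, by 1.37 on the log2 scale in Huh1 and by 0.91 in Huh7. It was described together with 9 other genes that fetal liver and liver tumors express and adult liver largely does not: AFP, SALL4, LIN28B, IGF2BP1, IGF2BP2, IGF2BP3, DLK1, PEG10 and HMGA2. The members were named by gene symbol, with no measured value in the rule, and every probe listed under a RefSeq accession or symbol of these 10 genes was taken. That gave 15 of 42327 probes and 10 of 19720 named genes on the array. A probe was tested where some group, of the 6, had it well above background on each of its 3 arrays. This held for 14 member probes, for all 10 member genes and for 29894 probes in all. The probe that stood for each member was well above background on all 18 arrays, so no member passed this filter through 1 group alone.

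Huh1 and Huh7 are established human hepatoma lines. Cells of each line were left as controls, treated with disulfiram (DSF, 0.1 µM), an aldehyde dehydrogenase inhibitor that the study's methods pair with copper chloride, or treated with the antimetabolite 5-fluorouracil (5-FU, 1 µM), each drug for 48 h. What the control cells received is not given in the sources used here. The arrays used sorted EpCAM+ cells, whose total RNA was labeled with Cy3, and each group had 3 arrays from independent experiments, 18 in all. The paper does not state for these arrays whether the sort came before or after treatment. Each line is a single culture line, so a difference between Huh1 and Huh7 is a difference between these 2 lines. The RNA came from bulk sorted cells, in which fewer cells of a kind and less RNA per cell cannot be told apart.

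The oncofetal genes fall into a few kinds by role. GPC3 is a cell surface heparan sulfate proteoglycan, AFP is the main plasma protein of the fetal liver, and DLK1 is a membrane protein of hepatoblasts that is related to the Notch ligands. LIN28B binds precursors of the let-7 microRNAs and lowers their maturation, the 3 IGF2BP proteins bind and stabilize mRNAs, and HMGA2 and LIN28B are themselves classic targets of let-7. SALL4 is a zinc finger transcription factor of embryonic stem cells and hepatoblasts, and PEG10 is an imprinted gene derived from a retrotransposon.

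Of the 42327 probes, 25341 to 30094 were well above background on an array, and no probe was saturated. Levels are given as log2 signal relative to the 75th percentile of the array, and a change is the limma estimate between group means on that scale. Against 6 added spike-in probes, that percentile was 0.83 higher on the 5-FU than on the control arrays in Huh1 and 0.99 higher in Huh7, and the median probe rose by 0.79 and 0.94 with spike-in scaling. After DSF the same shifts were 0.13 in Huh1 and -0.17 in Huh7. A change after 5-FU is therefore relative to the bulk of the probes, and values with spike-in scaling are given beside it. The Huh1 arrays lay on 1 slide except DSF array 3, which shared a second slide with Huh7 controls, Huh7 5-FU and Huh7 DSF array 1. Huh7 DSF arrays 2 and 3 were on the third slide, scanned on another day, so for the members the DSF changes in Huh7 are also given without them where a call or sign changed or the size moved clearly, from 1 DSF array against 3 controls. The controls of the 2 lines lay on different slides, linked only by Huh1 DSF array 3.

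The cells carried the liver markers of the labeled lines. ALB, the albumin gene, had group means of 8.07 to 8.62, and EPCAM, the gate used in the sort, had means of 2.62 in Huh1 and 5.49 in Huh7 controls. Of 12 markers of blood, stromal and endothelial cells, 9 passed the filter. Of the defining ones, PTPRC (leukocytes) had means of -4.83 to -4.44, CD3E (T cells) was well above background on 6 of 18 arrays, COL1A2 and COL3A1 (fibroblasts) on 2 and 1, and ACTA2 (myofibroblasts) on 4. Of these markers 1 rose and 1 fell after DSF in Huh1, 1 rose and 2 fell after DSF in Huh7. Of all probes tested, 44.2% and 46.7% were called after DSF in Huh1 and Huh7. EPCAM itself fell by 0.66 and 0.50 after DSF in Huh1 and Huh7 (the latter -0.47, adjusted p = 0.227, without the third slide), and its part in the changes of the members was not tested.

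DSF lowered most oncofetal genes in Huh1 and fewer in Huh7. In Huh1, 8 of the 10 passed the test, 7 lower (GPC3, AFP, LIN28B, IGF2BP1, IGF2BP3, PEG10 and HMGA2) and 1 higher (SALL4), while 44.2% of all probes tested were called, 20.3% lower and 23.9% higher. In Huh7, 4 passed, none higher and 4 lower (GPC3, LIN28B, IGF2BP2 and IGF2BP3), against a background of 46.7%, with 19.4% lower and 27.3% higher. DSF and control arrays did not overlap for 9 members in Huh1 and 6 in Huh7, as for 59.1% and 60.5% of all probes. The median change of the members was -0.49 in Huh1 and -0.03 in Huh7, against 0.0023 and 0.0826 for all probes. Without the 2 Huh7 DSF arrays of the third slide the Huh7 count was 1 higher (PEG10) and 2 lower (GPC3 and IGF2BP2), against 27.4% of all probes. GPC3, LIN28B and IGF2BP3 were the members lower in both lines, as were 7.62% of all probes, and GPC3 alone was left without that slide. No member was higher in both, as were 9.92%. Leaving out single arrays removed the call of LIN28B in Huh7 or added a call of AFP or DLK1 there, as described with those genes. The Huh7 count then ran from 3 to 6.

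After 5-FU the members were split in each line. In Huh1, 7 of the 10 passed, AFP and SALL4 higher and IGF2BP1, IGF2BP2, IGF2BP3, PEG10 and HMGA2 lower, against 48.2% of all probes, 22.2% higher and 26% lower. In Huh7, 7 passed, SALL4 and PEG10 higher and AFP, LIN28B, IGF2BP2, IGF2BP3 and HMGA2 lower, against 57.1%, with 27.3% higher and 29.7% lower. The 5-FU and control arrays did not overlap for 8 members in each line, as for 56.2% of all probes in Huh1 and 66.3% in Huh7. The median change was -0.27 and -0.29, against -0.0334 and -0.0484 for all probes. IGF2BP2, IGF2BP3 and HMGA2 were lower in both lines, as were 15.9% of all probes, and SALL4 was higher in both, as were 13.2%. With spike-in scaling SALL4 in both lines, AFP in Huh1 and PEG10 in Huh7 were still called higher, but no member was called lower: 7 members in Huh1 and 9 in Huh7 were called, all of them higher, against 76% and 80.3% of all probes called under that scaling. The DSF and 5-FU comparisons of a line share its 3 control arrays, so calls of a gene after both drugs are not independent of each other.

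**Figure D1:**
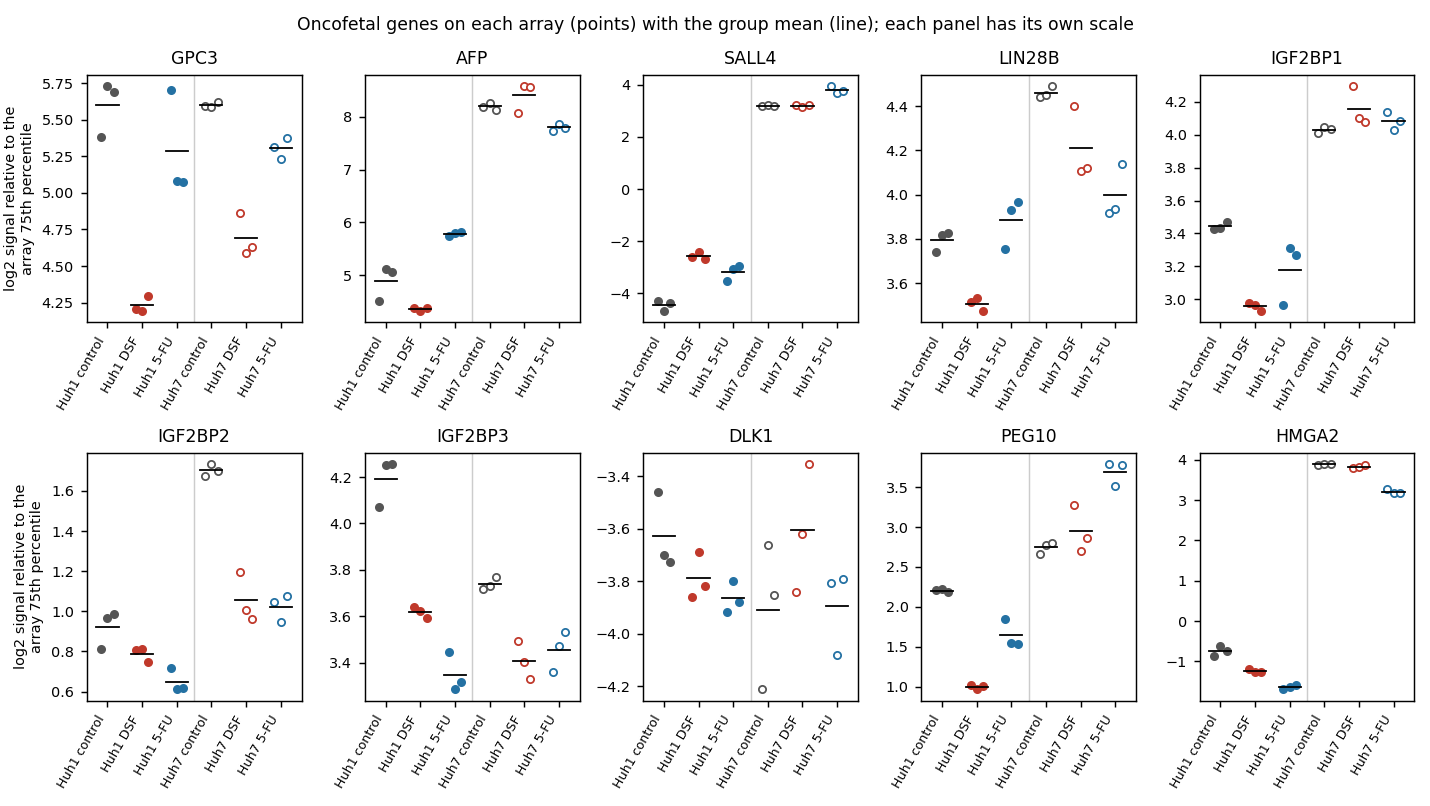
Log2 signal relative to the 75th percentile of the array (vertical axis) for the 10 oncofetal genes on each of the 18 arrays (points, filled for Huh1 and open for Huh7), with group means as lines and a separate scale in each panel. GPC3 lies between 4.19 and 4.30 on the Huh1 DSF arrays and between 5.38 and 5.73 on the Huh1 controls, whereas SALL4 and HMGA2 differ most between the lines.

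GPC3 stood at the same level in untreated cells of both lines and was lowest after DSF. The Huh1 control arrays read 5.38, 5.73 and 5.69 and the Huh1 DSF arrays 4.21, 4.19 and 4.30. The Huh7 control arrays read 5.60, 5.59 and 5.62 and the Huh7 DSF arrays 4.87, 4.59 and 4.63. In both lines every DSF array lay below every control array. The 5-FU arrays read 5.70, 5.08 and 5.07 in Huh1, where the first lay inside the control range, and 5.32, 5.23 and 5.38 in Huh7, just below the controls.

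The fitted fall after DSF was 1.37 in Huh1 (SE 0.14, adjusted p = 3.73e-06), a level 2.59-fold lower, and 0.91 in Huh7 (SE 0.14, adjusted p = 0.000159), 1.88-fold lower. With spike-in scaling the changes were -1.24 and -1.08. Without the Huh7 DSF arrays of the third slide, the Huh7 change was -0.74, from 1 DSF array against 3 controls. GPC3 was the gene that the study followed up from these same arrays, so its direction here is not independent evidence. The difference of the DSF change between the lines was 0.46 (95% interval 0.02 to 0.90, adjusted p = 0.0856). It passed the threshold without Huh1 control array 1 (0.57, adjusted p = 0.0401) or without Huh1 5-FU array 1 (0.46, adjusted p = 0.0121). It also passed with median scaling (0.62, adjusted p = 0.0439) and with only the groups compared (0.46, adjusted p = 0.0236).

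After 5-FU the GPC3 change was -0.32 in Huh1 (adjusted p = 0.0862) and -0.29 in Huh7 (adjusted p = 0.0992), short of the threshold in both. Huh1 5-FU array 1 carried much of the spread: without it the Huh1 change was -0.53 (adjusted p = 0.000921) and the Huh7 change, through the shared error estimate, had an adjusted p of 0.0148. Without Huh1 control array 1 the Huh1 change was -0.43 (adjusted p = 0.0354). With only the groups compared the Huh7 change of -0.29 passed (adjusted p = 0.0113). With the mean over probes the Huh1 change was -0.40 (adjusted p = 0.0478). With spike-in scaling GPC3 was instead 0.51 higher in Huh1 and 0.69 higher in Huh7. Set directly against 5-FU, the DSF level was 1.05 lower in Huh1 (log2 change -1.05, adjusted p = 3.62e-05) and 0.61 lower in Huh7 (log2 change -0.61, adjusted p = 0.00207). The Huh7 difference was -0.44 (adjusted p = 0.108) without the third slide.

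A second GPC3 probe gave the same order of groups. Its changes after DSF were -1.51 in Huh1 (adjusted p = 5.94e-06) and -1.10 in Huh7 (adjusted p = 0.000109). After 5-FU it gave -0.48 in Huh1, which passed the threshold (adjusted p = 0.0278), and -0.39 in Huh7, which did not (adjusted p = 0.0584). Spike-in scaling adds 0.83 in Huh1 and 0.99 in Huh7 to these 5-FU changes, so both lie above 0 with it. The 2 probes thus differed in the call for 5-FU in Huh1 and not in any direction.

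AFP moved in opposite directions after the 2 drugs in Huh1, while in Huh7 its direction depended on the arrays or the normalization used. The gene lies on chromosome 4 in a cluster with ALB, AFM and GC. Its promoter is shown because AFP is the member best known for a liver-specific promoter. The window is chr4:73435971-73436270 on the plus strand of GRCh38.p14 (RefSeq) and spans the start of the gene. Capitals mark the half-site GTTAAT of the liver factor HNF1, whose first base is at -132, and the TATA box TATAAA, whose first base is at -29. Both strands were searched and the 2 matches do not overlap.
AFP promoter: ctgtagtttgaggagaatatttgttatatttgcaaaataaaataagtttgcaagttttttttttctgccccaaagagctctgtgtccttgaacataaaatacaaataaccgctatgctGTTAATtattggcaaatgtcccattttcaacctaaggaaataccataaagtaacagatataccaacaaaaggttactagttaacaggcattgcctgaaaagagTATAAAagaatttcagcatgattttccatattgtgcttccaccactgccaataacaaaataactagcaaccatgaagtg
Of 35116 RefSeq promoters of this length, 6.88% held GTTAAT and 11.53% TATAAA on either strand. The AFP promoter had 33.0% G and C, against a median of 58.7%.

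On the Huh1 arrays AFP read 4.51, 5.11 and 5.05 in controls, 4.38, 4.32 and 4.38 after DSF, and 5.75, 5.79 and 5.81 after 5-FU. All DSF arrays lay below and all 5-FU arrays above the controls. On the Huh7 arrays it read 8.19, 8.27 and 8.14 in controls, 8.07, 8.59 and 8.57 after DSF, and 7.74, 7.87 and 7.79 after 5-FU. The 2 higher Huh7 DSF arrays were those of the third slide.

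AFP fell by 0.53 after DSF in Huh1 (SE 0.15, adjusted p = 0.00911; 0.051 where only those 6 arrays were fitted), and its change in Huh7 was 0.21 (adjusted p = 0.254). The latter differed by slide: it was 0.38 (adjusted p = 0.0297) without Huh7 DSF array 1 and -0.13 (adjusted p = 0.663) without the 2 arrays of the third slide. After 5-FU AFP rose by 0.90 in Huh1 (adjusted p = 0.000184; 1.72 with spike-in scaling). In Huh7 it fell by 0.40 (adjusted p = 0.0326), a call that was not kept under 4 single omissions: Huh7 control array 1 (-0.40) or 2 (-0.36) or Huh7 5-FU array 1 (-0.37) or 3 (-0.39). The sign turned with quantile normalization (0.13) and with spike-in scaling (0.59). Untreated Huh7 had 3.31 more than Huh1 (9.92-fold, adjusted p = 4.11e-11).

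SALL4 rose from a low level in Huh1 and started high in Huh7. The Huh1 controls read -4.31, -4.69 and -4.38, the DSF arrays -2.60, -2.40 and -2.67, and the 5-FU arrays -3.54, -3.06 and -2.97. The Huh7 controls read 3.19, 3.23 and 3.20, the DSF arrays 3.22, 3.15 and 3.23, and the 5-FU arrays 3.97, 3.68 and 3.75. Every treated Huh1 array lay above every Huh1 control, and all Huh1 arrays lay far below all Huh7 arrays.

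After DSF, SALL4 was 1.90 higher in Huh1 (SE 0.14, adjusted p = 1.16e-07), 3.74-fold, and its change in Huh7 was -0.01 (95% interval -0.30 to 0.29). After 5-FU it was 1.27 higher in Huh1 (adjusted p = 4.66e-06) and 0.59 higher in Huh7 (adjusted p = 0.00187), and with spike-in scaling 2.09 and 1.58. SALL4 was the only member called higher in Huh1 after both drugs. The untreated level was 7.67 higher in Huh7 than in Huh1 (204-fold, adjusted p = 2.12e-15). All Huh1 arrays were well above background for this probe. At the smallest among the alternatives, the Huh1 change was 1.05 after DSF and 0.50 after 5-FU, and the untreated line difference was 6.38.

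LIN28B was called lower after DSF in both lines and after 5-FU in Huh7, with changes smaller than those of GPC3 after DSF. The let-7 microRNAs that LIN28B restrains were not measured here. A few are shown because they tie LIN28B to HMGA2 and the IGF2BP genes, known let-7 targets, and because they share the seed, bases 2 to 8 in capitals, that pairs with target mRNAs.
let-7a-5p: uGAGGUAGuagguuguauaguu
let-7d-5p: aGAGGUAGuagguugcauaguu
let-7g-5p: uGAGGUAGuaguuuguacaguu
miR-98-5p: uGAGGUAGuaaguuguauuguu
In the RefSeq table, 11 of 2370 mature human microRNAs carried this seed, GAGGUAG.

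The LIN28B levels were 3.74 to 3.83 on Huh1 controls, 3.47 to 3.53 after DSF and 3.76 to 3.97 after 5-FU. In Huh7 they were 4.44 to 4.49 on controls, 4.11 to 4.40 after DSF and 3.92 to 4.14 after 5-FU. LIN28B fell by 0.29 after DSF in Huh1 (adjusted p = 0.0125), where the DSF arrays lay below all controls. With spike-in scaling that change was -0.16 (adjusted p = 0.496).

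In Huh7 LIN28B fell by 0.25 after DSF (adjusted p = 0.0257), but the single DSF array on the slide of the controls read 4.40 and the others 4.11 and 4.12. The change was -0.06 (adjusted p = 0.724) without the third slide. It also missed the threshold without Huh7 DSF array 2 (-0.20) or 3 (-0.21), or without Huh7 control array 1 (-0.26), 2 (-0.26) or 3 (-0.24). After 5-FU the change was 0.09 in Huh1 (adjusted p = 0.419), or 0.91 with spike-in scaling (adjusted p = 8.69e-05), and LIN28B fell by 0.46 in Huh7 (adjusted p = 0.000296), which became 0.52 higher with spike-in scaling.

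The 3 IGF2BP genes did not move alike. IGF2BP3 was the only member called lower in all 4 comparisons with controls, on the scale of the 75th percentile. GPC3, IGF2BP2 and HMGA2 also had values below 0 in all 4, without passing the test in each. Its promoter is shown for contrast with AFP: chr7:23470442-23470741 on the minus strand of GRCh38.p14, with capitals at both matches to the E-box CACGTG, a site read by MYC and related factors, on either strand, which 7.26% of promoters hold. Their first bases are at -174 and -146, and the promoter has 56.3% G and C with no GTTAAT or TATAAA.
IGF2BP3 promoter: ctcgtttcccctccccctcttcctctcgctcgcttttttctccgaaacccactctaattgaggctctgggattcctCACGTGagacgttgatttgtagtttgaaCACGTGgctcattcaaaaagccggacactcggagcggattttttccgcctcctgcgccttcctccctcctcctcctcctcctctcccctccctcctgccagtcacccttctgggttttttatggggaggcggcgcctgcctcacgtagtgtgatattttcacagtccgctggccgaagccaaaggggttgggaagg
The promoter table held 4 of the 10 members: AFP, LIN28B, IGF2BP2 and IGF2BP3.

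IGF2BP3 read 4.07, 4.25 and 4.26 on Huh1 controls, 3.64, 3.62 and 3.59 after DSF, and 3.44, 3.28 and 3.31 after 5-FU. In Huh7 it read 3.72, 3.73 and 3.77 on controls, 3.49, 3.40 and 3.33 after DSF, and 3.36, 3.47 and 3.53 after 5-FU. Treated and control arrays did not overlap in either line.

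IGF2BP3 fell by 0.58 after DSF in Huh1 (adjusted p = 1.39e-05) and by 0.33 in Huh7 (adjusted p = 0.00151). Without the third slide the Huh7 change was -0.25 (adjusted p = 0.0829). After 5-FU it fell by 0.85 in Huh1 (adjusted p = 4.58e-07) and by 0.29 in Huh7 (adjusted p = 0.00285), and with spike-in scaling the changes were -0.02 (adjusted p = 0.897) and 0.70 (adjusted p = 0.000183).

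IGF2BP1 fell in Huh1 and stayed within narrow limits in Huh7. Its Huh1 levels were 3.43 to 3.47 on controls, 2.93 to 2.98 after DSF and 2.96 to 3.31 after 5-FU. The falls were 0.48 after DSF (adjusted p = 0.000261) and 0.26 after 5-FU (adjusted p = 0.0173). The second call was not kept without Huh1 control array 3 (-0.25) or without Huh1 5-FU array 1 (-0.15), and with spike-in scaling the changes were -0.35 (adjusted p = 0.107) and 0.56 (adjusted p = 0.00463). In Huh7 the changes were 0.13 (95% interval -0.05 to 0.30) and 0.05 (95% interval -0.13 to 0.23), and with spike-in scaling 5-FU gave 1.04.

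IGF2BP2 showed the reverse pattern between the lines. It read 1.68 to 1.73 on Huh7 controls, 0.96 to 1.20 after DSF and 0.95 to 1.08 after 5-FU, with no overlap. The falls in Huh7 were 0.65 after DSF (adjusted p = 5.47e-06) and 0.68 after 5-FU (adjusted p = 1.37e-06). In Huh1 the change after DSF was -0.13 (adjusted p = 0.145), and IGF2BP2 fell by 0.27 after 5-FU (adjusted p = 0.00525). With spike-in scaling the 5-FU changes were 0.31 in Huh7 and 0.55 in Huh1. Without the third slide the DSF change in Huh7 was -0.50 (adjusted p = 0.00117).

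The dimmer IGF2BP2 probe differed in 3 of these 4 calls. After DSF it was 0.26 higher in Huh1 (adjusted p = 0.00747), and its Huh7 change of -0.17 missed the threshold (adjusted p = 0.0562). After 5-FU its change was -0.05 in Huh1 (adjusted p = 0.63) and it fell by 0.40 in Huh7 (adjusted p = 0.000184), the call that both probes gave. With spike-in scaling this probe was 0.78 and 0.58 higher after 5-FU in Huh1 and Huh7. Unlike the brighter probe it was higher after DSF than after 5-FU in both lines (0.31, adjusted p = 0.00234, and 0.23, adjusted p = 0.0108).

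HMGA2 depended on the probe. The HMGA2 probe of the longer RefSeq transcript, NM_003483, read -0.86, -0.62 and -0.74 on Huh1 controls, -1.20, -1.26 and -1.26 after DSF, and -1.69, -1.64 and -1.59 after 5-FU. In Huh7 it read 3.87, 3.89 and 3.89 on controls, 3.80, 3.82 and 3.86 after DSF, and 3.28, 3.17 and 3.19 after 5-FU. This probe fell by 0.50 after DSF in Huh1 (adjusted p = 1.52e-05), and in Huh7 its change was -0.06 (adjusted p = 0.475). After 5-FU it fell by 0.90 in Huh1 (adjusted p = 9.63e-08) and by 0.67 in Huh7 (adjusted p = 3.82e-07). With spike-in scaling the 5-FU changes were -0.07 in Huh1 and 0.31 in Huh7.

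A second HMGA2 probe, A_33_P3357658, listed under the transcript NM_003484, went the other way. It read -5.09, -5.28 and -5.34 on Huh1 controls (well above background on 2 of them), -4.21, -3.99 and -4.09 after DSF and -4.16, -3.52 and -3.69 after 5-FU. In Huh7 it read -1.77, -1.66 and -1.66 on controls, -1.61, -1.80 and -1.73 after DSF, and 0.19, 0.32 and 0.83 after 5-FU. HMGA2 by this probe was 1.14 higher after DSF in Huh1 (adjusted p = 6.48e-05), 1.45 higher after 5-FU in Huh1 (adjusted p = 7.53e-06) and 2.14 higher after 5-FU in Huh7 (adjusted p = 7.24e-08), and spike-in scaling kept these directions (1.27, 2.27 and 3.13).

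The remaining HMGA2 probe, A_33_P3211078, is listed under the same transcript as the second and fell by 0.95 after 5-FU in Huh1 (adjusted p = 0.027). Spike-in scaling adds 0.83 to that change, so the fall is much smaller with it. This remaining probe read 0.79, 2.49 and 2.27 on the Huh7 DSF arrays, high on the pair of the third slide, against 1.34, 1.28 and 0.98 on controls. The NM_003484 label therefore did not predict the direction of a probe, and no isoform level was derived.

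**Figure D2:**
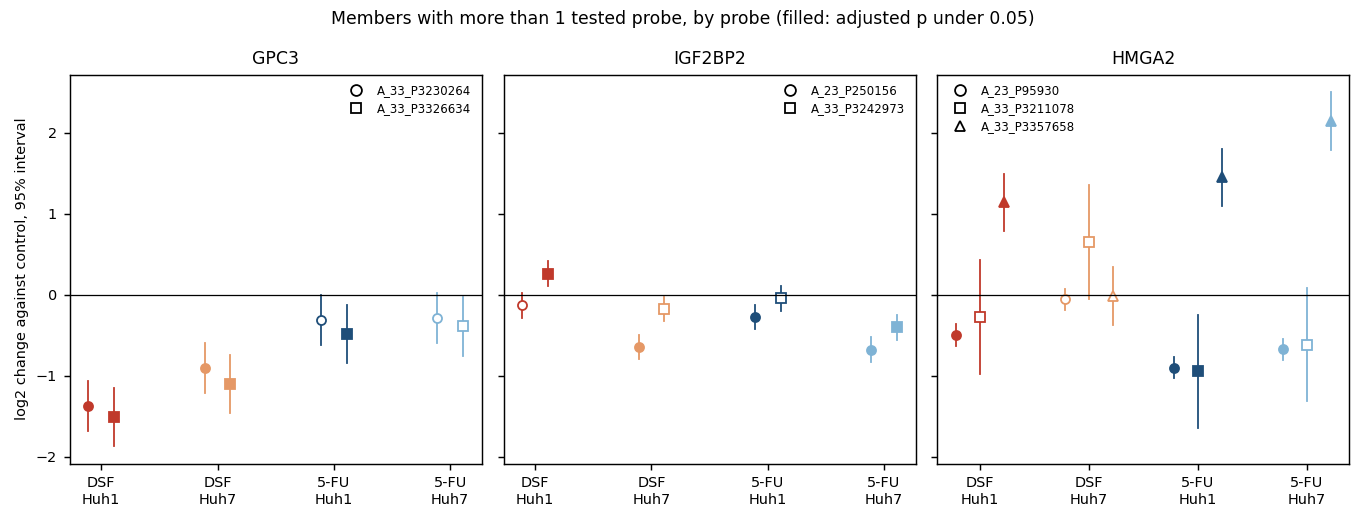
Log2 change against the control arrays with its 95% interval (vertical axis) for every tested probe of GPC3, IGF2BP2 and HMGA2 in the 4 comparisons (horizontal axis), filled where the adjusted p was under 0.05. The GPC3 probes lie close together, and the HMGA2 probe A_33_P3357658 lies at 1.14, 1.45 and 2.14 where the probe A_23_P95930 lies at -0.50, -0.90 and -0.67, the last of which turns to 0.31 with spike-in scaling.

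PEG10 fell after both drugs in Huh1 and rose after 5-FU in Huh7, on the scale of the 75th percentile. The Huh1 controls read 2.21, 2.22 and 2.18, the DSF arrays 1.02, 0.97 and 1.00, and the 5-FU arrays 1.85, 1.55 and 1.54. The Huh7 controls read 2.66, 2.77 and 2.80, the DSF arrays 3.27, 2.70 and 2.86, and the 5-FU arrays 3.79, 3.52 and 3.78. In Huh1 both treated groups lay below the controls, and in Huh7 the 5-FU arrays lay above them.

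PEG10 fell by 1.21 after DSF in Huh1 (adjusted p = 3.35e-06), 2.31-fold lower, and by 0.56 after 5-FU (adjusted p = 0.00207). In Huh7 PEG10 was 0.95 higher after 5-FU (adjusted p = 1.53e-05), and its change after DSF was 0.20 (adjusted p = 0.204). Without the third slide the latter was 0.53 (adjusted p = 0.00992). With spike-in scaling the 5-FU change in Huh1 was 0.27 (adjusted p = 0.235) and in Huh7 1.94. SGCE, the neighbor that shares an imprinted promoter region with PEG10, fell by 0.45 after DSF in Huh1 (adjusted p = 0.000233) and rose by 0.39 after 5-FU in Huh7 (adjusted p = 0.000461). In the other comparisons its changes were -0.06 after DSF in Huh7 (adjusted p = 0.562) and 0.11 after 5-FU in Huh1 (adjusted p = 0.233), where PEG10 had 0.20 and -0.56. With spike-in scaling the SGCE changes were -0.31 (adjusted p = 0.114) after DSF in Huh1 and 0.94 and 1.38 after 5-FU in Huh1 and Huh7.

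DLK1 gave no call in any comparison of treated and control cells on this scale, though some alternatives below gave one. It read -3.73 to -3.46 on Huh1 controls, -3.86 to -3.69 after DSF and -3.92 to -3.80 after 5-FU, and -4.21 to -3.66 on Huh7 controls, -3.84 to -3.35 after DSF and -4.08 to -3.79 after 5-FU. The ranges overlapped except for 5-FU in Huh1. The changes were -0.16 (95% interval -0.47 to 0.15), 0.30 (-0.00 to 0.61), -0.24 (-0.54 to 0.07) and 0.02 (-0.29 to 0.32) for DSF in Huh1 and Huh7 and 5-FU in Huh1 and Huh7. In Huh7 the DSF change passed without Huh7 control array 2 (0.43, adjusted p = 0.035) or without Huh7 DSF array 1 (0.42, adjusted p = 0.0305). Without the third slide it was 0.07 (adjusted p = 0.843). In Huh1 the DSF change passed with quantile normalization (-0.33, adjusted p = 0.0457) and with median scaling (-0.33, adjusted p = 0.0499). The 5-FU change in Huh1 passed with normexp background correction (-0.30, adjusted p = 0.00735). With spike-in scaling DLK1 was higher after 5-FU in both lines (0.59 and 1.00). The other DLK1 probe was well above background on 2 of 18 arrays and was not tested.

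**Figure D3:**
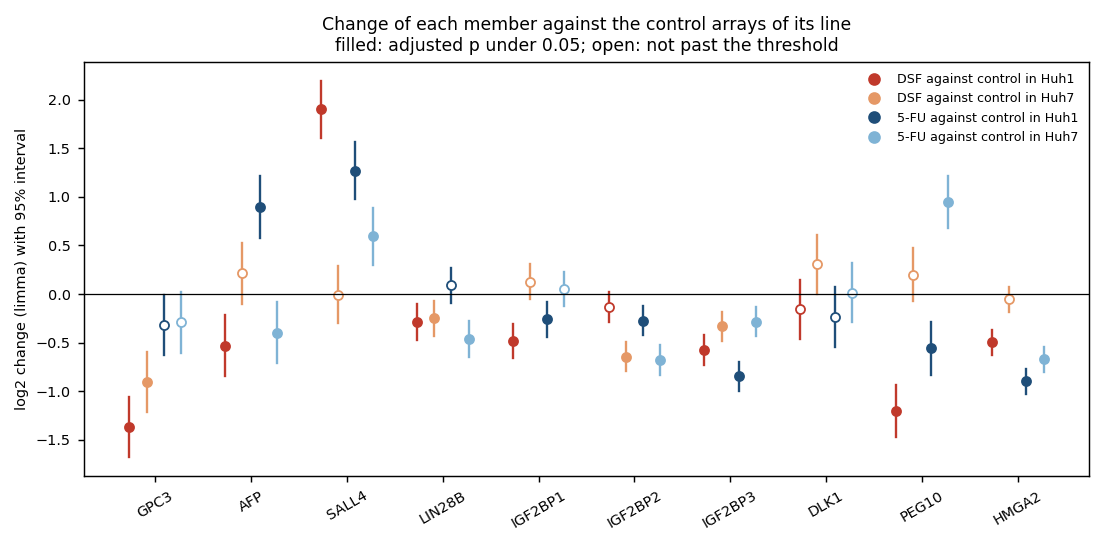
Log2 change against the control arrays of the same line (vertical axis, limma estimate with its 95% interval) for the 10 genes in the 4 comparisons, filled where the adjusted p over all 29894 probes was under 0.05. GPC3 and IGF2BP3 lie below 0 in all 4 on this scale (with spike-in scaling GPC3 lies at 0.51 and 0.69 and IGF2BP3 at -0.02 and 0.70 after 5-FU in Huh1 and Huh7), and SALL4 reaches 1.90 after DSF in Huh1.

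The response to DSF differed between the lines for 6 members and that to 5-FU for 7, by the test of the difference itself, against 40.3% and 36.6% of all probes. Huh7 minus Huh1 was above 0 for 4 and below 0 for 2 of the members called for DSF (background 21.1% and 19.2%), and for 3 and 4 for 5-FU (18.8% and 17.8%). For DSF the largest differences, Huh7 minus Huh1, were -1.91 for SALL4 (adjusted p = 4.98e-06) and 1.41 for PEG10 (adjusted p = 3.34e-05). For 5-FU they were 1.51 for PEG10 (adjusted p = 1.97e-05) and -1.29 for AFP (adjusted p = 0.000265). With spike-in scaling 3 members passed in each. GPC3 was among the members whose difference did not pass for either drug, though for DSF it passed under the alternatives given with that gene. Single arrays decided some of the smaller differences. For DSF, IGF2BP3 passed without Huh1 control array 1 (0.31), Huh1 5-FU array 1 (0.24), Huh7 5-FU array 1 (0.24) or Huh7 DSF array 3 (0.28), and DLK1 without Huh7 control array 2 (0.59) or Huh7 DSF array 1 (0.58). For 5-FU, HMGA2 passed without Huh1 control array 1 (0.28), and IGF2BP1 (0.31, adjusted p = 0.0495) passed in only 3 of 18 single omissions: Huh1 5-FU array 2 or 3 or Huh7 DSF array 1.

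Set directly against each other at their own doses, DSF and 5-FU left different levels for 8 members in Huh1 (3 higher and 5 lower after DSF) and 6 in Huh7 (3 and 3). Of all probes, 49.2% were called in Huh1, 28.7% higher and 20.6% lower, and 60.5% in Huh7, 35.6% higher and 25% lower. The arrays did not overlap for 8 members in Huh1 and 5 in Huh7, as for 63.6% and 63.3% of all probes. AFP was 1.43 lower after DSF than after 5-FU in Huh1 (log2 change -1.43, adjusted p = 2.88e-06) and 0.61 higher in Huh7 (adjusted p = 0.00258). The Huh7 value was 0.27 (adjusted p = 0.247) without the third slide. PEG10 was lower after DSF in both lines (log2 changes -0.65, adjusted p = 0.000675, and -0.75, adjusted p = 0.000138). HMGA2 depended on the probe: that of NM_003483 was higher after DSF in both (0.40, adjusted p = 9.57e-05, and 0.62, adjusted p = 9.43e-07), while A_33_P3357658 gave -0.31 (adjusted p = 0.141) and -2.16 (adjusted p = 7.37e-08). The smallest of these differences rested on single arrays. IGF2BP1 in Huh1 (-0.22, adjusted p = 0.0379) was not called without Huh1 5-FU array 2 (-0.16) or 3 (-0.18) or without Huh1 DSF array 1 (-0.23), 2 (-0.23) or 3 (-0.21). LIN28B in Huh7 (0.21, adjusted p = 0.0426) was not called in 12 of 18 single omissions, with values of 0.12 (without Huh7 DSF array 1) to 0.21, and DLK1 in Huh7 was called without Huh7 DSF array 1 (0.41, adjusted p = 0.0298). With spike-in scaling 8 members in Huh1 and 10 in Huh7 were called, all lower after DSF, against 67.3% and 83.7% of all probes called and median probes at -0.61 and -1.04 under that scaling.

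**Figure D4:**
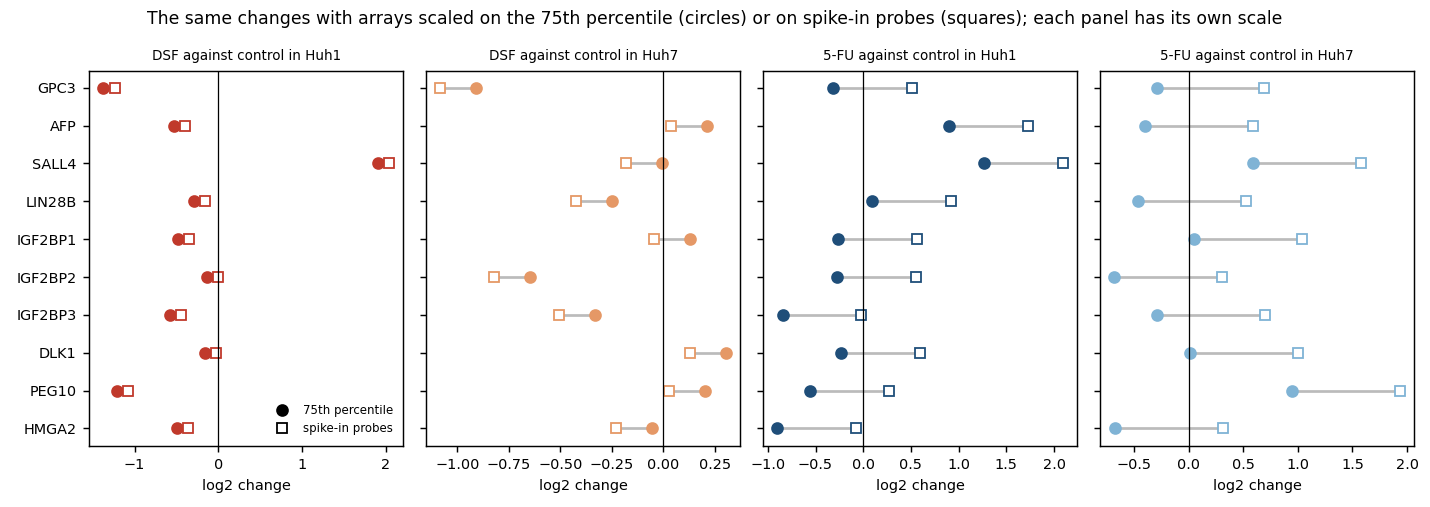
Log2 change against the control arrays (horizontal axes, a separate scale in each panel) of the 10 genes with arrays scaled on the 75th percentile (circles) or on 6 spike-in probes (squares). The points lie close together after DSF and 0.83 (Huh1) and 0.99 (Huh7) apart after 5-FU, so that GPC3 after 5-FU moves from -0.32 to 0.51 in Huh1 and from -0.29 to 0.69 in Huh7.

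Untreated Huh7 cells had higher levels than untreated Huh1 cells for 7 of the members and a lower level for 1, against 70.7% of all probes called, 34.5% higher and 36.2% lower. The arrays did not overlap for those 8, as for 77.2% of all probes. SALL4 (7.67), HMGA2 (4.63 by the probe of NM_003483) and AFP (3.31) had the largest differences in log2 level. The other HMGA2 probes gave 3.54 and 0.29 (adjusted p = 0.441), and the mean over its probes 2.82. With slide as a block the same counts were called, 7 higher and 1 lower, against 56.1% of all probes, an estimate that rests on Huh1 DSF array 3. IGF2BP3 was the lower one (log2 change -0.45, adjusted p = 3.73e-05). DLK1 passed without Huh7 control array 2 (-0.40, adjusted p = 0.0275). GPC3 differed by less than the spread between arrays (0.00, 95% interval -0.31 to 0.31). Ordered by level, the 6 group means of GPC3 ran from the 2 controls, which overlapped, through the 2 5-FU groups, which overlapped, to Huh7 DSF and Huh1 DSF, which did not.

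The other glypicans moved in different directions. GPC6 fell by 0.44 and 0.39 after DSF in Huh1 (adjusted p = 0.00834) and Huh7 (adjusted p = 0.0173), the latter -0.13 (adjusted p = 0.592) without the third slide. GPC1 fell by 0.50 in Huh1 and rose by 0.64 in Huh7. GPC2 rose by 0.80 in Huh1 and fell by 1.51 in Huh7, and GPC4 rose by 0.92 in Huh1 with a change of -0.14 in Huh7. GPC5 was not above background on any Huh1 array and fell by 1.55 after DSF in Huh7, where 2 of 3 DSF arrays measured it. After 5-FU in Huh7, GPC5 rose by 2.94 and GPC4 by 1.38, and spike-in scaling kept both directions.

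**Figure D5:**
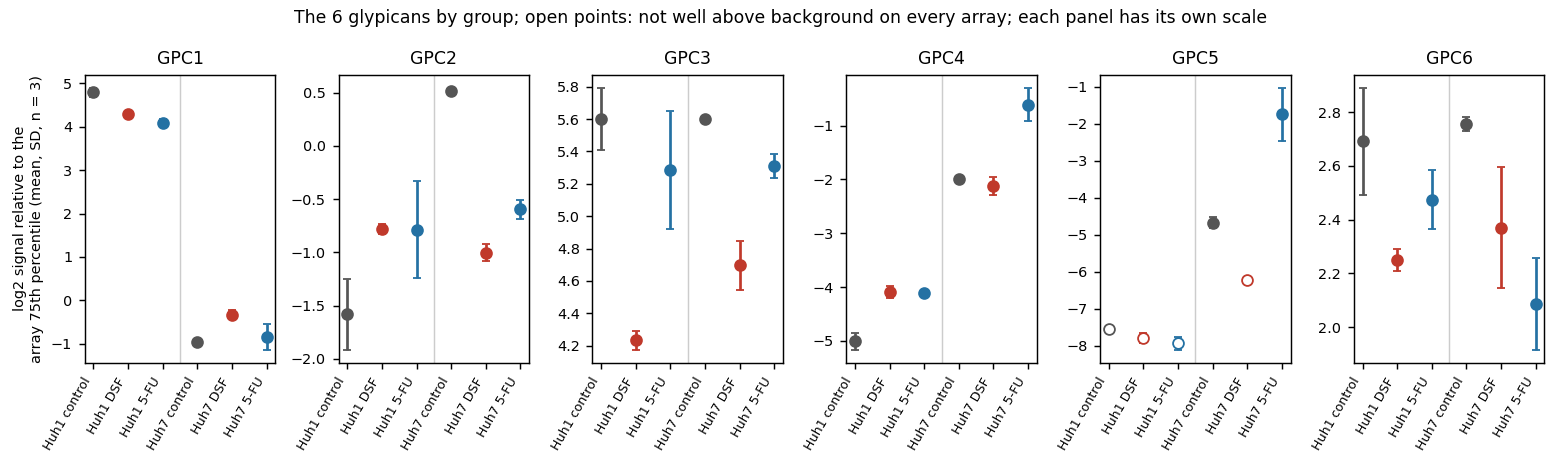
Mean log2 signal relative to the 75th percentile of the array with its SD (vertical axes, n = 3 arrays, a separate scale in each panel) for the 6 glypicans in the 6 groups. GPC3 falls to 4.23 after DSF in Huh1 and 4.70 in Huh7, while GPC5 rises to -1.74 after 5-FU in Huh7 and is drawn open, for groups not well above background on every array, in Huh1 and after DSF in Huh7.

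Of the 24 genes of the glypican and heparan sulfate list, chosen with earlier results of these data known, 23 were tested. After DSF 3 rose and 12 fell in Huh1, and 3 rose and 12 fell in Huh7, with medians of -0.34 and -0.24, against 44.2% and 46.7% of all probes called and medians of 0.0023 and 0.0826. With spike-in scaling 3 rose and 5 fell in Huh1 and none rose and 12 fell in Huh7, and without the third slide 2 rose and 6 fell in Huh7. SULF2, which removes sulfate from heparan sulfate chains, fell by 2.34 in Huh1 (adjusted p = 1.11e-06), with a change of -0.49 in Huh7. SULF1, the related sulfatase, was at least 3.21-fold lower on average after DSF in Huh7, where no DSF array was above background. That floor did not hold without the third slide, where the change was -0.83, from 1 DSF array against 3 controls. The SULF1 change after 5-FU in Huh7 was -1.43 (adjusted p = 0.0128), or -0.45 with spike-in scaling. IGF2, a growth factor that glypicans bind, was not well above background on Huh1 controls and was at least 11.2-fold higher after DSF there (adjusted p = 6.46e-08), while its change in Huh7 was -0.24. After 5-FU 4 rose and 11 fell in each line, and with spike-in scaling 14 rose and none fell in each. Of all probes, 48.2% and 57.1% were called after 5-FU in Huh1 and Huh7. With spike-in scaling 31.8% and 31.3% of all probes were called after DSF, and 76% and 80.3% after 5-FU.

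Of the neighbors of AFP in the albumin cluster, GC and ALB fell after DSF in both lines. GC, the vitamin D binding protein gene, had log2 changes of -1.43 in Huh1 (adjusted p = 4.73e-06) and -2.26 in Huh7 (adjusted p = 7.31e-08). ALB fell by 0.25 and 0.33 (adjusted p = 0.0193 and 0.00365). AFM, which encodes afamin, fell by 1.40 after DSF in Huh1 and rose by 0.85 and 2.37 after 5-FU in Huh1 and Huh7. Of the 16 genes of this list tested, 2 rose and 11 fell after DSF in Huh1, and 4 rose and 5 fell in Huh7, or 1 and 4 without the third slide. Over all arrays, 44.2% of all probes were called after DSF in Huh1 and 46.7% in Huh7. Under spike-in scaling 2 genes of the list rose and 5 fell in Huh1, and none rose and 5 fell in Huh7. That scaling called 31.8% and 31.3% of all probes. HNF4A, a master regulator of hepatocyte genes, had changes of -0.90 and -0.67 after DSF, or -0.77 and -0.85 with spike-in scaling. Of the postnatal repressors of AFP, ZHX2 fell by 0.52 in Huh1 after DSF (change 0.10 in Huh7) and its 5-FU changes were -0.83 and -1.06, or -0.0024 and -0.07 with spike-in scaling. ZBTB20 rose by 0.46 and 0.49 after DSF (the latter 0.40, adjusted p = 0.15, without the third slide) and by 0.73 and 1.00 after 5-FU. After 5-FU 4 rose and 5 fell in Huh1 and 5 rose and 8 fell in Huh7, and with spike-in scaling 13 rose and none fell in each. Of all probes, 48.2% and 57.1% were called after 5-FU in Huh1 and Huh7, or 76% and 80.3% with spike-in scaling.

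Of 19 tested genes of the LIN28 and let-7 list, 4 rose and 6 fell after DSF in Huh1 and 10 rose and 1 fell in Huh7, where 3 rose and 1 fell with spike-in scaling and 9 rose and none fell without the third slide. ARID3B, a let-7 target, rose by 0.84 and 0.54 in Huh1 and Huh7 (adjusted p = 1.36e-05 and 0.000675). TRIM71, another let-7 target, fell by 1.03 in Huh1 (adjusted p = 1.29e-06), with a change of -0.07 in Huh7. HMGA1, the paralog of HMGA2, rose by 0.27 and 0.55 after DSF and had changes of -0.38 and -0.55 after 5-FU, or 0.44 and 0.44 with spike-in scaling. DIS3L2, the nuclease that degrades uridylated let-7 precursors, had changes of -0.99 and -2.26 after 5-FU, or -0.16 and -1.27 with spike-in scaling. MYC had -0.41 and -1.91, or 0.41 and -0.93. After 5-FU 3 rose and 10 fell in Huh1 and 7 rose and 7 fell in Huh7. With spike-in scaling 16 rose after 5-FU in Huh1 with none lower, while in Huh7 15 rose and 2 fell. Of all probes, 44.2% and 46.7% were called after DSF in Huh1 and Huh7, and 48.2% and 57.1% after 5-FU. With spike-in scaling 31.8% and 31.3% of all probes were called after DSF, and 76% and 80.3% after 5-FU. LIN28A was well above background on 1 of 18 arrays and was not tested.

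Among SALL4's relatives and partners, 16 were tested. None rose and 7 fell after DSF in Huh1, where SALL4 itself rose, and 3 rose and 3 fell in Huh7. With spike-in scaling none rose and 3 fell in each line, and without the third slide 2 rose and 3 fell in Huh7. SALL2 fell by 1.24 and 1.08 after DSF in Huh1 and Huh7 (adjusted p = 0.000144 and 0.00048). SALL1 fell by 0.96 in Huh1 (adjusted p = 4.17e-06), and SALL3 was not called in any of the 4 comparisons on the scale of the 75th percentile, while with spike-in scaling it was 0.93 and 0.97 higher after 5-FU. Of the subunits of the NuRD chromatin complex that SALL4 recruits, GATAD2B fell by 0.67 and 0.79 after DSF, and MTA1 had changes of -0.85 and -0.69 after 5-FU, or -0.02 and 0.30 with spike-in scaling. POU5F1, the pluripotency factor OCT4, had -0.98 after 5-FU in Huh7, or 0.0045. After 5-FU none rose and 6 fell in Huh1 and 2 rose and 7 fell in Huh7, and with spike-in scaling 13 and 14 rose and none fell. The shares of all probes called in Huh1 and Huh7 were 44.2% and 46.7% after DSF and 48.2% and 57.1% after 5-FU. With spike-in scaling those shares were 31.8% and 31.3% after DSF, and 76% and 80.3% after 5-FU.

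Among 17 tested imprinted genes and partners of DLK1, 3 rose and 4 fell after DSF in Huh1 and 2 rose and 2 fell in Huh7, or 1 and 1 without the third slide. NOTCH3, a Notch receptor, fell by 1.11 and 2.46 after DSF, and its 5-FU changes were -1.47 and -0.85, or -0.64 and 0.14 with spike-in scaling. DIO3, in the same imprinted cluster as DLK1, rose by 3.50 after DSF in Huh7 (adjusted p = 1.19e-08). MEG3, the noncoding RNA of that cluster, was not called in any of the 4 comparisons on the scale of the 75th percentile, while with spike-in scaling it was 0.77 and 0.70 higher after 5-FU. H19, the noncoding partner of IGF2, fell by 2.42 after 5-FU in Huh1. In Huh7 it was at least 5.01-fold lower on the scale of the 75th percentile. No 5-FU array there was above background, and 2 of 3 controls were (mean -4.90, SD 1.85). Spike-in scaling adds 0.83 in Huh1 and 0.99 in Huh7 to these changes, so both falls and the Huh7 bound are smaller with it. After 5-FU 5 rose and 6 fell in Huh1 and 5 rose and 3 fell in Huh7, and with spike-in scaling 13 rose and 2 fell, and 15 rose and 1 fell. Among all probes, 44.2% and 46.7% were called after DSF in Huh1 and Huh7, and 48.2% and 57.1% after 5-FU. The latter shares were 76% and 80.3% with spike-in scaling. The H19 changes after DSF were 1.69 (adjusted p = 0.0638) and -0.52 (adjusted p = 0.569).

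Other markers of hepatocellular carcinoma and of hepatocytes were read the same way. Of 13 tested carcinoma markers, 3 rose and 4 fell after DSF in Huh1 and 3 rose and 5 fell in Huh7, or 3 and 4 without the third slide. HSPA1A, an inducible heat shock protein gene used as such a marker, rose by 1.63 in Huh1 (adjusted p = 5.65e-07) and was at least 276-fold higher in Huh7, where no control array was above background. DKK1, a secreted Wnt inhibitor, rose by 2.91 after DSF in Huh1 (adjusted p = 0.000558), and MDK, a secreted growth factor, rose by 1.17 and 0.58 after 5-FU. Of 11 hepatocyte and epithelial markers, none rose and 8 fell after DSF in Huh1 and 2 rose and 6 fell in Huh7. With spike-in scaling 4 fell in Huh1 and 6 in Huh7 with none higher, and without the third slide 1 rose and 4 fell in Huh7. APOA1, an apolipoprotein gene, fell by 2.03 and 0.82 (the latter -0.74, adjusted p = 0.116, without the third slide), and CDH1, the E-cadherin gene, by 0.69 and 1.25. After 5-FU 3 of the 11 rose and 3 fell in Huh1 and 7 rose and 1 fell in Huh7, among them FGB, a fibrinogen gene, which rose by 0.78 and 1.40, and with spike-in scaling all 11 rose in each line. The shares of all probes called in Huh1 and Huh7 were 44.2% and 46.7% after DSF and 48.2% and 57.1% after 5-FU. With spike-in scaling those shares were 31.8% and 31.3% after DSF, and 76% and 80.3% after 5-FU.

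The 5 genes whose pattern was most like that of GPC3 over the 18 arrays, each gene taken relative to its mean in its line, were ST6GAL1, PYGL, ADH6, IFNAR2 and DUSP19, with Pearson r of 0.98, 0.98, 0.97, 0.97 and 0.96 among 15852 genes. The arrays share the groups, so these values describe the likeness of 6 group means and carry no test. ADH6, an alcohol dehydrogenase, changed by -1.73 and -1.05 after DSF and by -0.58 and -0.15 after 5-FU in Huh1 and Huh7. PYGL, the liver glycogen phosphorylase, changed by -1.17 and -1.11 after DSF and by -0.18 and -0.35 after 5-FU. No other member was among them. The highest correlation of a member with GPC3, by the same measure, was 0.63 for PEG10, and the lowest was -0.66 for SALL4.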

How the data were processed

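Per the file headers, Agilent Feature Extraction 10.7.1.1 gave the intensity of each spot on 18 one-color arrays (processed signal, background-subtracted). The authors' deposited value table, a ratio to 1 value per array, differed from these by 1 constant per array (100% of probes within 0.05 on the log2 scale) and served as an alternative. Outlier spots were left out, spots of a probe averaged as log2 values, and each array was scaled on its 75th percentile. Probes were named through RefSeq accessions (GRCh38.p14), 25736 with a symbol. A gene was read from its tested probe with the highest mean. limma 3.58.1 in R 4.3.3 fitted 6 groups to 29894 probes, with Benjamini-Hochberg adjustment over all of them and a threshold of 0.05. Alternatives were normexp (on the median spot signal, the column given, in place of the planned mean), quantile, median and spike-in scaling, no filter, slide or replicate as a block, only the groups compared, the mean over probes, and single arrays left out; fits without the third slide or within slides were added after seeing the data. Genes named beyond the members were the glypicans, the AFP neighbors, ZHX2, ZBTB20, LIN28A, HMGA1, the SALL family, IGF2, H19, MEG3, SGCE, the 2 genes per list with the largest mean change per drug and the 5 most like GPC3. The members and lists were chosen with earlier results of these data known. Array number limits the precision.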

Additional observations from a re-analysis of the deposited data

Results flagged for a closer look

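Oncofetal genes whose response to a drug differed between the lines, by the test of the difference itself, are given here as Huh7 minus Huh1 on the log2 scale. After DSF the differences were -1.91 for SALL4 (higher in Huh1 alone), 1.41 for PEG10 (lower in Huh1 alone), 0.74 for AFP, 0.61 for IGF2BP1, -0.51 for IGF2BP2 and 0.44 for HMGA2. The AFP difference was 0.40 (adjusted p = 0.192) without the Huh7 DSF arrays of the third slide. The HMGA2 probe A_33_P3357658 gave -1.16 (adjusted p = 0.00136) and the mean over HMGA2 probes 0.07 (adjusted p = 0.762). With spike-in scaling AFP (0.43), IGF2BP1 (0.30) and HMGA2 (0.14) were not called. After 5-FU they were 1.51 for PEG10 (changes of -0.56 in Huh1 and 0.95 in Huh7, or 0.27 and 1.94 with spike-in scaling), -1.29 for AFP (changes of 0.90 and -0.40, or 1.72 and 0.59), -0.68 for SALL4, 0.56 for IGF2BP3, -0.55 for LIN28B, -0.41 for IGF2BP2 and 0.31 for IGF2BP1. The IGF2BP1 difference (adjusted p = 0.0495) missed the threshold in 15 of 18 single omissions of an array. With spike-in scaling the differences for PEG10, AFP and IGF2BP3 passed and the others did not. The AFP change in Huh7 was 0.13 with quantile normalization.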

How the results depend on the processing

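The count of members called in the 9 comparisons stayed within 1.5 times its value under 28 planned settings and 2 added after seeing the data, except with spike-in scaling, which called 10 for DSF against 5-FU in Huh7, 3 for the line difference after DSF and 3 for that after 5-FU. The fall of GPC3 after DSF was called in both lines under every setting. Sign changes are counted where either value was called: 28, of which 22 came with spike-in scaling, whose construction adds the shift of the 75th percentile, and none with a single array left out. With spike-in scaling 5-FU in Huh1 gave 0.51 for GPC3, 0.56 for IGF2BP1, 0.55 for IGF2BP2, 0.59 for DLK1 and 0.27 for PEG10. 5-FU in Huh7 gave 0.69 for GPC3, 0.59 for AFP, 0.52 for LIN28B, 0.31 for IGF2BP2, 0.70 for IGF2BP3 and 0.31 for HMGA2. DSF against 5-FU in Huh1 gave -0.0571 for SALL4, -0.55 for IGF2BP2, -0.42 for IGF2BP3, -0.62 for DLK1 and -0.29 for HMGA2, and in Huh7 -0.55 for AFP, -0.95 for LIN28B, -1.08 for IGF2BP1, -1.13 for IGF2BP2, -0.87 for DLK1 and -0.54 for HMGA2. The mean over the probes of HMGA2 gave 0.12 for DSF in Huh1, 0.28 for 5-FU in Huh7 and -0.0916 for DSF against 5-FU in Huh7, since its probes differ in direction. Quantile normalization gave 0.13 for AFP after 5-FU in Huh7 and -0.0765 for AFP, DSF against 5-FU in Huh7, and normexp gave 0.0899 for the SALL4 line difference after 5-FU; the cause was not tested. Outside single omissions, 67 of 1080 member values lost and 32 gained a call, sign changes included.

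The replicate numbers did not pair the arrays: same-numbered arrays of a line correlated at -0.09 to 0.02 in their deviations from the group means, and 1 of 18 correlated best with its own number. With the replicate number as a block, 3 calls were lost: IGF2BP1 (-0.22, adjusted p = 0.059) for DSF against 5-FU in Huh1, LIN28B (0.21, adjusted p = 0.0598) for DSF against 5-FU in Huh7, and IGF2BP1 (0.31, adjusted p = 0.0761) for the line difference after 5-FU. No other member call changed with this block.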
